A study of Mus musculus with 23 samples.

Results

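The resting transcriptome of the mouse mesenteric artery was described from 12 sham libraries, 6 labelled 7-day sham and 6 labelled 14-day sham, out of 23 libraries in the series. The members were chosen by the treatment label alone and no expression value was used. The mice were male C57BL/6J animals 10 to 12 weeks old, and no allele or transgene was involved. The other 11 libraries came from mice given angiotensin II (Ang II) under the skin at 1000 ng per kg and minute for 7 days (6 libraries) or 14 days (5 libraries). In the main test they entered only the estimate of the spread and the filter that chose which genes were tested. The labels name the control treatment as sham and do not say what it consisted of. Each library carries its own number in its title, here called the animal number, though the titles do not say what it stands for. The labels state 10 mice and 6 libraries per group, and a library is taken as an animal.

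Mesenteric arteries are the vessels that feed the gut. Their wall holds an inner endothelium, a medial coat of contractile smooth muscle and an outer adventitia of fibroblasts and nerve endings, and smooth muscle tone in these small arteries helps to set blood pressure. Sympathetic nerve fibres end on them, while the cell bodies of those nerves lie in ganglia near the root of the mesentery. The arteries run through fat and lie next to the pancreas, and per the labels' protocols they were dissected free of fat, veins and other tissue before RNA extraction. Vessel cells also run a circadian clock, in which Arntl and its partners Clock or Npas2 drive genes such as Dbp, Tef, Per and Nr1d1, whose products feed back on them.

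Promoter windows of 4 genes are shown because the results turn on groups that varied between animals: noradrenergic neuron genes, an immediate early gene and a clock gene. Each runs from 250 bases before to 50 bases after the transcript start, on the gene's strand, from RefSeq on GRCm38.p6 (the assembly also called mm10). Th and Slc18a2 have the cyclic AMP response element TGACGTCA in capitals, Egr2 has a CArG box in capitals and Tef has the E-box CACGTG in capitals.
Th: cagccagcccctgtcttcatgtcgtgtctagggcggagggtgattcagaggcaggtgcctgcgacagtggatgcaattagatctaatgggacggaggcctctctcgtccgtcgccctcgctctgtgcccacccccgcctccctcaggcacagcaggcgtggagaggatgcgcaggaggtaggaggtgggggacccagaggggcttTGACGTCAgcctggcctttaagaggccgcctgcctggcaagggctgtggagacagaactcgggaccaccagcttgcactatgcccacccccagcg
Slc18a2: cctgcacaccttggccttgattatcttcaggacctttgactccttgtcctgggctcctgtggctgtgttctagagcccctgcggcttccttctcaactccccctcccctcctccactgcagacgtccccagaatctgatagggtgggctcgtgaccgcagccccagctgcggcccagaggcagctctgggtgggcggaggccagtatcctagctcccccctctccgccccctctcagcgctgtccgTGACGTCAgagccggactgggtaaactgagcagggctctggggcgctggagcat
Egr2: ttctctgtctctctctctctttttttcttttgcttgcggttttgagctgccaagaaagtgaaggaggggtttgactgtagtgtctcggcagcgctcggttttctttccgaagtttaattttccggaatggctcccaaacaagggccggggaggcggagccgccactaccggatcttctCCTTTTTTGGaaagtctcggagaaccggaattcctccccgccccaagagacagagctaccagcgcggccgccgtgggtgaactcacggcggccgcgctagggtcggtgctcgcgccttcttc
Tef: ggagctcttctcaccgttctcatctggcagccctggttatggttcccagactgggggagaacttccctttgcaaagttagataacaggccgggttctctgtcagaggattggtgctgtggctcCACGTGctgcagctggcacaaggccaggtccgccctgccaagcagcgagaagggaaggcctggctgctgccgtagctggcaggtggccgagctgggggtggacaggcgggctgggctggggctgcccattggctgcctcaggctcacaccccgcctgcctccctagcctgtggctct
The windows lie at chr7:142899946-142900245 (minus strand), chr19:59260628-59260927 (plus), chr10:67537316-67537615 (plus) and chr15:81802423-81802722 (plus). Only the gene's strand was searched, and these motifs read alike on both strands. Of 32851 promoter windows, 1.79% held TGACGTCA, 1.63% held a CArG box and 7.15% held CACGTG. Among 8 neuron genes that varied most, 6 had a window and 2 of them, Th and Slc18a2, held TGACGTCA. Of 7 immediate early genes 6 had a window and Egr2 alone held a CArG box, in 4 of its 5 windows. Of 11 clock genes 10 had a window, and Tef, Per1 and Bhlhe41 held CACGTG.

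Depth was uneven between the groups. Recovered reads ran from 4471038 to 17470989 in the 7-day group and from 8807407 to 18004347 in the 14-day group, with means of 8898834 ± 4893066 and 14214829 ± 3713039 (SD, n = 6 each). The difference did not pass an exact two-sided permutation test (p = 0.061, adjusted p = 0.076 over 5 library properties). Genes with at least 1 read numbered 18861 ± 1135 at 7 days and 20185 ± 514 at 14 days (exact permutation adjusted p = 0.065). A transcript listed as AY036118 took 0.113% to 36.2% of the reads of 7-day libraries and 0.799% to 9.35% of those of 14-day libraries (exact permutation adjusted p = 0.076). On the log2 scale of these shares the unadjusted exact permutation p was 0.38. Mitochondrial genome transcripts made up 15.6% ± 3.17 of 7-day reads and 20.3% ± 2.49 of 14-day reads (exact permutation adjusted p = 0.065). The first digits of the animal numbers also differ, with 4 of the 7-day and 1 of the 14-day animals in the number series 27, 4 of the 14-day animals in series 26, and 2 and 1 in series 28. The labels do not call this a batch.

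The most abundant transcripts of these arteries were not those of the vessel wall. Of 39179 genes in the table, 24717 had a read in some sham library, 15440 in all 12, and 8950 had a mean value of at least 10 on the authors' normalized scale. The 10 genes with the highest mean took 39.9% of the summed value and the top 100 took 57.3%. Ranked by mean value per kilobase of exon, over genes with an annotated length and so without AY036118, the leading genes were the mitochondrial ribosomal RNA mt-Rnr2 at 106494 per kb, the small nuclear RNA Rn7sk at 75561 per kb, and Rmrp and Rpph1, the RNA parts of 2 RNA-cutting enzymes, at 20531 and 20433 per kb. The other 16 of the first 20 were the ribosomal RNA mt-Rnr1 and 15 genes of digestive enzymes or other secreted products of the pancreas. Prss2 (trypsin) stood at 19270 per kb, Ctrb1 (chymotrypsinogen) at 15402 per kb and Pnlip (pancreatic lipase) at 12316 per kb. Trypsins, elastases, Reg genes and globins have near-identical copies, so the division of reads between members of those families is uncertain.

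Vessel genes followed the pancreatic ones. Acta2, the smooth muscle actin, was the 25th protein-coding gene at 1137 per kb, with Gsn at 982 per kb, the myosin light chain Myl9 at 956 per kb and Tagln at 779 per kb. The smooth muscle myosin Myh11 stood at 219 per kb, the fibroblast proteoglycan Dcn at 381 per kb, the collagen Col3a1 at 127 per kb and the endothelial adhesion protein Pecam1 at 103 per kb. Every one of 25 contractile, 20 endothelial and 16 fibroblast markers was detected in some sham library. Detection alone does not show that these transcripts came from the artery wall. Ucp1, the brown fat uncoupling protein, did not exceed 1.13, and Ren1 (renin) did not exceed 0.652, both close to 0.

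Pancreatic transcripts were present in every library. The summed value of 17 acinar markers ran from 119176 to 238712 in the 7-day group (median 155336) and from 89452 to 186242 in the 14-day group (median 151424). The same markers took 8.18% to 18.5% of reads. The ranges of the groups overlap, and the highest library exceeded the lowest 2.67-fold. Ins2, an insulin gene, lay at 890 to 2013 with a median of 1261 at 7 days and at 482 to 2002 with a median of 807 at 14 days. In bulk tissue, fewer cells of a type and less RNA per cell cannot be told apart.

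**Figure D1:**
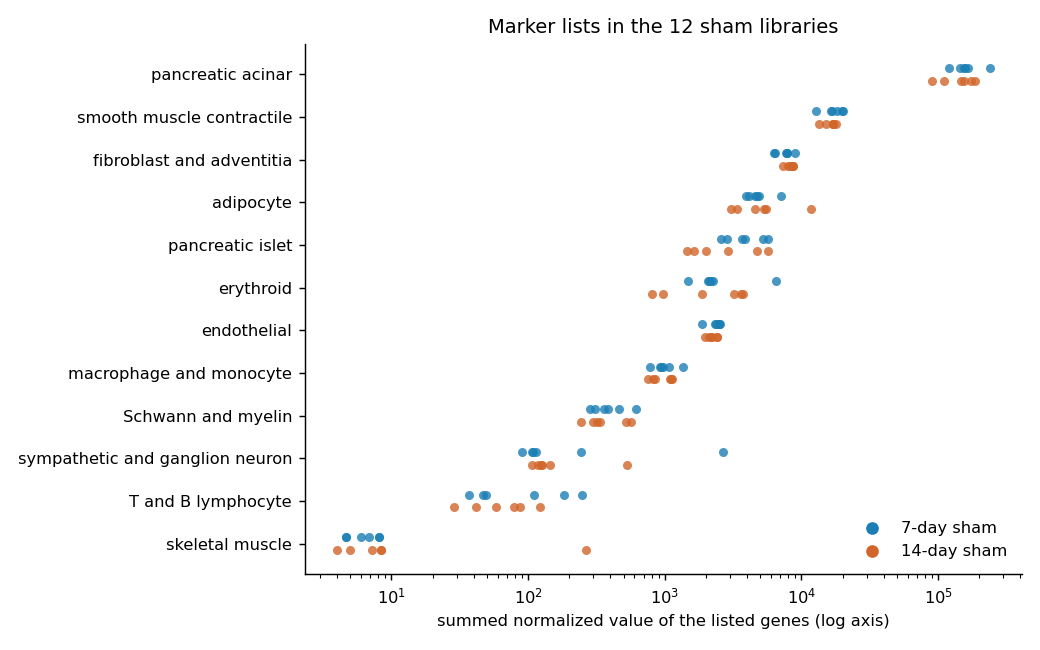
Summed normalized value (log axis) of 12 marker lists, with 1 point per library, blue for 7-day and orange for 14-day sham. Smooth muscle, fibroblast and endothelial sums lie close together, whereas the neuron sum reaches 2672 in a 7-day library and the skeletal muscle sum 265 in a 14-day library.

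Wall genes varied somewhat more between libraries than the typical gene. Over the 8950 genes with a mean of at least 10, the median within-group SD of log2(value + 0.5) was 0.201 in the 7-day and 0.148 in the 14-day group, and 0.183 when both groups were pooled. Among the wall lists, endothelial genes had a median pooled SD of 0.220 over 19 genes, fibroblast genes 0.222 over 16, basement membrane genes 0.238 over 14 and contractile genes 0.244 over 25. Pericyte genes had 0.288 over 6, collagens 0.307 over 18 and elastic fibre genes 0.310 over 17. All 7 medians lie above that of all genes. Without 7-day replicate 1 all 7 were nearer to the median of all genes, which was then 0.175. Endothelial genes then had 0.189, contractile genes 0.198, fibroblast genes 0.205 and basement membrane genes 0.211. Collagens had 0.214, elastic fibre genes 0.218 and pericyte genes 0.247. With all 12 libraries, nuclear oxidative phosphorylation genes had 0.185 over 34 and cytosolic ribosomal protein genes 0.143 over 30. The top 5% of genes by spread had an SD of 0.467 or more.

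Acta2 illustrates a wall gene. It ran from 1874 to 3208 with a median of 2638 at 7 days, and from 1932 to 2679 with a median of 2417 at 14 days. The groups overlap, and the highest library was 1.71-fold above the lowest. Pecam1 lay at 590 to 778 (median 671) and 537 to 739 (median 618), a 1.45-fold range. The 7-day replicate 1 was the lowest of its group for Acta2, Myh11 (1203, the others at 1772 to 1895), Col1a1 (174, the others at 334 to 532) and Eln, the elastin gene (69.6, the others at 115 to 143). The most even genes of all were Nab1, a corepressor of Egr transcription factors, with an SD of 0.041, the ribosomal protein gene Rps25 with an SD of 0.042, and Hiatl1. They were followed by Rqcd1, Rnf139, Zkscan1, Kdm2a, Drg2, Usp7 and Srp72.

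Spread fell with level from values of 1 to 1000 and was larger again above that. Genes with a mean of 1 to 10 had a median pooled SD of 0.345, those of 10 to 100 had 0.185 and those of 100 to 1000 had 0.163. For these 3 ranges the SD that counting alone gives was 0.234, 0.099 and 0.041. The 35 genes from 1000 to 10000 had a median SD of 0.362 and the 13 genes above 10000 had 0.383, against counting SDs of 0.009 and 0.004.

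The 7-day libraries lay farther from each other. The median absolute distance of a library from the mean of the other 5 of its group, over genes, ran from 0.109 to 0.225 log2 units at 7 days and from 0.087 to 0.134 at 14 days. The difference did not pass the exact two-sided permutation test (p = 0.074, n = 6 each). Each distance is taken from the other libraries of its group, so the distances within a group are not independent. The p-values of this distance, here and below, are therefore only a guide. The most distant libraries were 7-day replicate 4 at 0.225 and 7-day replicate 1 at 0.192. With reads other than AY036118 thinned to 2853990 per library, the median SDs were 0.230 at 7 days and 0.204 at 14 days and the p of the distance was 0.37 by exact permutation, so the gap between the groups was smaller at equal depth.

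**Figure D2:**
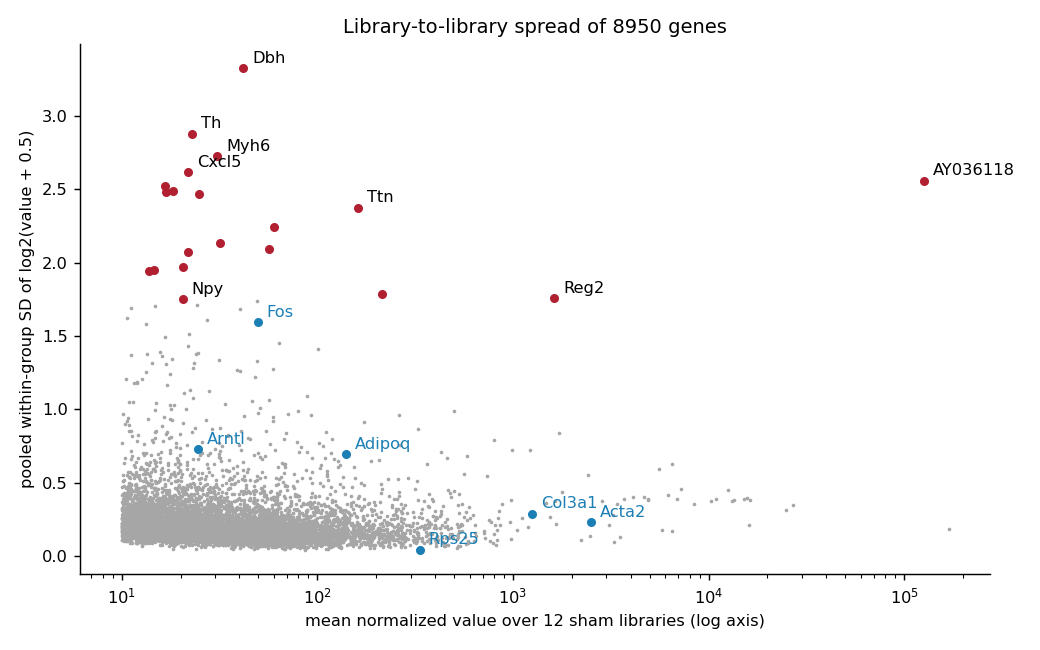
Pooled within-group SD of log2(value + 0.5) against mean value (log axis) for the 8950 genes with a mean of at least 10; red points are the 20 genes with the largest SD and blue points are named genes for comparison. Dbh stands at an SD of 3.33, while Acta2 stands at 0.231.

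A small set of genes varied by far more. The pooled SD exceeded 1 log2 unit for 75 genes, which is 0.838% of the 8950. Of those 75 genes 39 were highest in 7-day replicate 1, 10 in 14-day replicate 4, 7 in 7-day replicate 4 and 6 in 7-day replicate 5. Without 7-day replicate 1 the count was 47.

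The largest spread belonged to genes of noradrenergic neurons. Dbh (dopamine beta-hydroxylase, which makes noradrenaline; chr2:27165233-27183200) was at 0 to 410.1 with a median of 0.339 in the 7-day group, and at 0.114 to 71.0 with a median of 1.04 in the 14-day group. Its high libraries were 7-day replicate 1 (410.1), 14-day replicate 1 (71.0) and 7-day replicate 3 (17.1), and the other 9 were at 2.05 or lower. In the library at 0, 7-day replicate 5, 3 reads correspond to 0.977. Th (tyrosine hydroxylase, the first enzyme of catecholamine synthesis) reached 217.7, 38.1 and 13.1 in those same 3 libraries. The other 9 libraries did not exceed 2.21.

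Transporters and the cotransmitter followed the same libraries. Slc6a2, the noradrenaline transporter, was 512.8 in 7-day replicate 1, 87.0 in 14-day replicate 1 and 22.8 in 7-day replicate 3, and 3.98 to 7.62 elsewhere. Slc18a2, which loads monoamines into vesicles, was 230.3 in 7-day replicate 1 and 43.1 in 14-day replicate 1. Npy, the cotransmitter neuropeptide Y, was 166.1 and 30.3 in them, with group medians of 3.86 and 4.88. Rab3c and Syt1, vesicle release proteins, and Kcnq3, a potassium channel subunit, completed the neuron genes among the 20 most variable.

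The whole list of 17 sympathetic and ganglion neuron markers was high in the same libraries. Its summed value was 2672 in 7-day replicate 1, 530 in 14-day replicate 1 and 242 in 7-day replicate 3, and 90.8 to 145 in the other 9. All 12 list members with a mean of at least 10 were in the top 5% of spread, and their median SD was 1.56 against 0.183 over all genes; without 7-day replicate 1 the list's median SD was 0.882. Vip, a neuropeptide of other nerve fibres, did not follow, at 7.14 in 7-day replicate 1 against 8.12 to 34.0 elsewhere. Tubb3, a neuronal tubulin gene, was 204.6 in 7-day replicate 1 and 40.3 in 14-day replicate 1.

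Some vascular genes of interest moved with the neuron genes in that library. Agtr1a, the main receptor of Ang II in the mouse, was 33.8 in 7-day replicate 1 and 3.90 to 5.36 in the other 5 libraries of that group. At 14 days it ran from 3.46 to 9.17 with a median of 4.15, and the 9.17 was in replicate 1, the other library rich in neuron transcripts. The 7-day mean was 9.40 ± 12.0 (SD, n = 6) with replicate 1 and 4.52 ± 0.698 (n = 5) without it. Agtr1a and Agtr1b are close copies, so reads may be divided between them, and Agtr1b was 3.30 in 7-day replicate 1 against 3.45 to 6.94 elsewhere. Meg3, an imprinted noncoding RNA, was 210.6 in that library and 52.5 to 87.5 in the other 11, giving a 7-day mean of 95.2 ± 57.6 with it and 72.2 ± 12.7 without it. The part of neuron transcripts in the Agtr1a and Meg3 values was not tested.

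**Figure D3:**
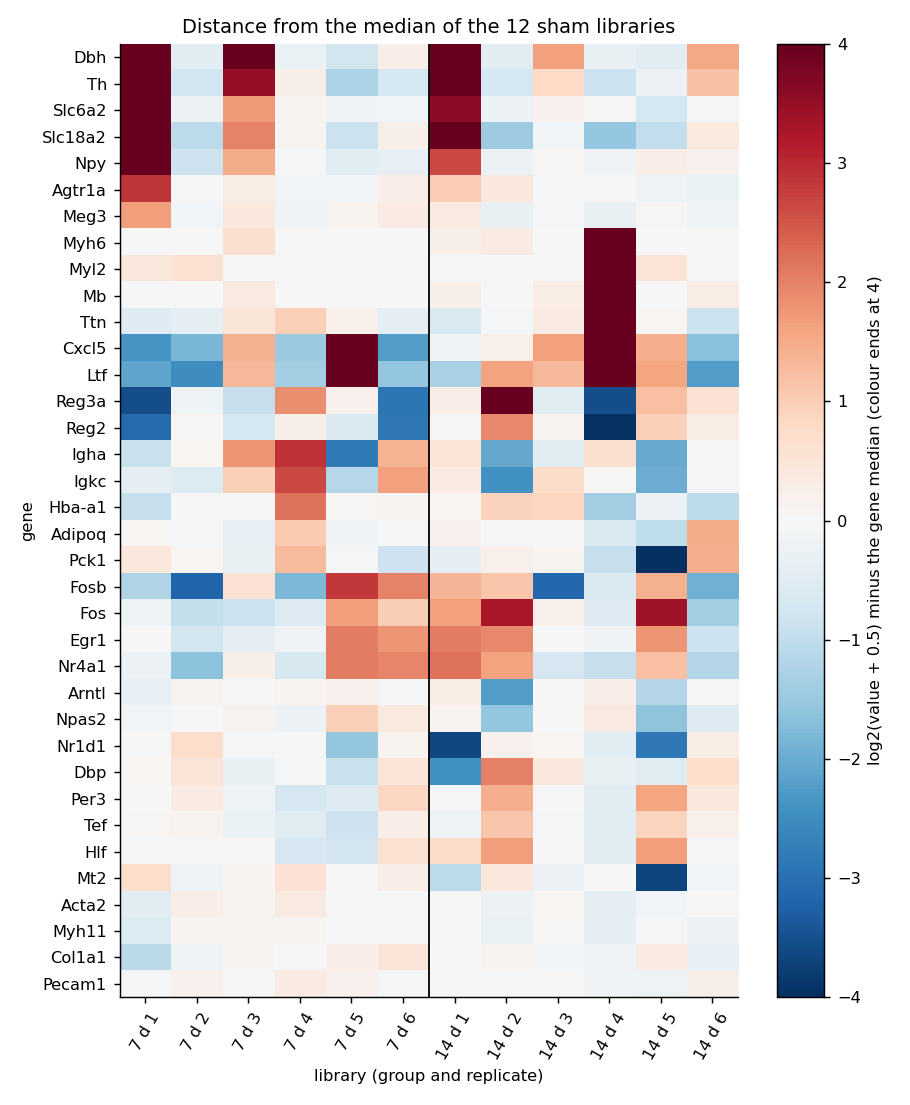
Distance of log2(value + 0.5) from each gene's median over the 12 sham libraries, with libraries in columns, genes in rows and the colour scale ending at 4 in both directions. Neuron genes stand out in 7-day replicate 1 and 14-day replicate 1, Myh6 to Ttn in 14-day replicate 4, and Acta2, Myh11 and Pecam1 are pale throughout.

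Striated muscle genes were high in a single animal. Myh6, the main heart myosin of the mouse, was 368.9 in 14-day replicate 4 and at most 0.282 in the other 11 libraries. Myl2, a ventricular and slow muscle myosin light chain, was 202.5 there and at most 0.265 elsewhere, and Mb (myoglobin) was 218.1 against at most 0.141. Ttn, the titin gene, was 1847 there and 4.05 to 15.6 elsewhere. Actc1, the cardiac actin, was 165.1 against 0.636 to 1.34. Of the 11 skeletal muscle markers the sum was 265 in this library, of which Mb and Ckm gave most, while Acta1 was 7.83 and the fast skeletal genes Mylpf and Myh1 were 0.167 and 0.250. Pln, phospholamban, the brake on the calcium pump of heart and smooth muscle, was also highest there at 234.3 against 65.8 to 109 elsewhere.

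A further set was high in 7-day replicate 5 and 14-day replicate 4. Cxcl5, a neutrophil-attracting chemokine, was 102.9 and 123.7 in these, with 0.179 to 10.3 in the other 10. Ltf, lactotransferrin of secretory epithelia and neutrophils, was 78.2 and 79.6, with 0.159 to 10.7 elsewhere. The epithelial keratin gene Krt8 was also highest in these libraries, at 169.4 and 228.0 against 59.8 to 117 elsewhere, and the neutrophil gene S100a8 was 10.1 and 14.3 against 0.739 to 7.31. Krt8 and S100a8 were named after their values were seen. The part of epithelium or neutrophils in Cxcl5 and Ltf was not tested.

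The Reg genes of the pancreas varied apart from the digestive enzymes. Reg2, a regenerating islet-derived protein, was 179 to 1802 with a median of 982 at 7 days and 97.9 to 5763 with a median of 1773 at 14 days. Reg3a and Reg3b, related secreted lectins, were likewise highest in 14-day replicate 2, at 416.7 and 1132. All 3 genes were low in 7-day replicates 1 and 6 and in 14-day replicate 4. Reg1, by contrast, spanned 3059 to 7013, and the groups overlap for all of them.

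Blood and lymphoid transcripts were most abundant in 7-day replicate 4. Igha and Igkc, immunoglobulin constant genes, were 180.0 and 101.5 there. Elsewhere Igha lay at 2.93 to 80.6 and Igkc at 2.56 to 49.7. Cd3e, a T cell receptor subunit, was at 0.705 or less in all 12 libraries. Hba-a1, a haemoglobin gene, was 1728 in 7-day replicate 4 and 148 to 731 elsewhere, and all 5 erythroid genes with a mean of at least 10 were in the top 5% of spread.

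Fat genes differed between animals as well. Adipoq, the fat hormone adiponectin, ran from 96.6 to 250.8 (median 117) at 7 days and from 59.6 to 340.0 (median 122) at 14 days, with the high values in 7-day replicate 4 and 14-day replicate 6. The summed adipocyte list was 7063 and 11773 in these and 3035 to 5519 in the others. Of its 18 genes, 15 were in the top 5% of spread, and all 18 had a larger SD in the 14-day group than in the 7-day group, against 2641 of the 8950 genes. The 14-day SD of Adipoq was 100.6 with replicate 6 and 32.7 (n = 5) without it. The count over the 18 genes was not repeated without that library, and genes of the same list are not separate evidence. Pck1, an enzyme of glyceride and glucose synthesis, was 247.0 in 14-day replicate 6 and 4.94 in 14-day replicate 5. Mt2, a metallothionein that binds metals and responds to glucocorticoids, and Angptl4, a fasting-induced lipase inhibitor, were also lowest in 14-day replicate 5, at 6.42 and 5.62.

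Immediate early genes, which respond within minutes to growth factors, stretch or injury, separated the animals across both groups. Fos ran from 8.75 to 57.3 (median 13.7) at 7 days and from 6.50 to 187.2 (median 38.1) at 14 days. Egr1 lay at 13.9 to 97.7 (median 22.3) and 12.5 to 98.0 (median 51.8), and Nr4a1 at 10.6 to 140.7 (median 34.5) and 14.96 to 154.3 (median 49.9). The high libraries were 7-day replicates 5 and 6 and 14-day replicates 1, 2 and 5 for all 3 genes, and the groups overlap. Egr1 was 79.8 to 98.0 in these 5 libraries and 12.5 to 23.5 in the other 7. Of 21 list members with a mean of at least 10, 16 were in the top 5% of spread.

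Fos and Egr1 moved together over the 12 libraries, with a Pearson r of 0.90 (permutation adjusted p = 0.0009 over 6 relations) and a Spearman rho of 0.92 (permutation adjusted p = 0.0003). Within the groups r was 0.99 at 7 days (exact p = 0.0028, n = 6) and 0.92 at 14 days (exact p = 0.028, n = 6), and r was 0.97 without the 2 libraries farthest from the median of Fos. Per1, a clock gene that glucocorticoids also induce, and Fkbp5, a glucocorticoid-induced chaperone, ran against each other (r = -0.64, permutation adjusted p = 0.052; rho = -0.71, permutation adjusted p = 0.022). Within the groups r was -0.87 (exact p = 0.067, n = 6) and -0.73 (exact p = 0.16, n = 6), and it was -0.64 without the 2 libraries farthest from the median of Per1. The fat genes Ucp1 and Adipoq had r = 0.62 (permutation adjusted p = 0.082; rho = 0.42, adjusted p = 0.22), which was -0.00067 without 2 libraries and so rested on them. Pnlip and Acta2 had r = -0.18 (permutation adjusted p = 0.58; rho = -0.37, adjusted p = 0.24). Reads and genes detected had r = 0.97 (permutation adjusted p = 0.00012; rho = 0.99, adjusted p = 0.00012).

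The clock was more uneven among the 14-day animals. Arntl (chr7:113207465-113314126), the core activator also called Bmal1, was 20.9 to 29.97 with a median of 27.6 in the 7-day group. In the 14-day group it was 5.24 to 32.8 with a median of 26.2, low in replicates 2 (5.24) and 5 (11.4) and at 25.7 or more in the other 4. The SD of log2 Arntl was 0.19 at 7 days and 1.01 at 14 days. Over 14 clock genes with a mean of at least 10, the median SD was 0.328 at 7 days and 0.780 at 14 days, larger at 14 days for 11 of them, whereas over all 8950 genes it was larger at 14 days for 2641.

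The same 14-day libraries stood apart for other clock genes. Npas2, an activator that can partner Arntl, was 2.80 and 2.67 in replicates 2 and 5 and 6.14 to 17.9 in the other 10 libraries. Per3 and Tef, repressor and output genes, were highest in these replicates. Per3 was 59.0 and 63.6 against 13.01 to 37.4 elsewhere, and Tef was 182.6 and 154.6 against 46.6 to 101 elsewhere. Nr1d1, the repressor REV-ERB alpha, was lowest in 14-day replicate 1 (2.42) and replicate 5 (4.54), then 12.1 in 7-day replicate 5, and 26.99 to 59.7 in the other 9. Dbp, an output transcription factor, was 68.7 in 14-day replicate 2 and 2.67 in 14-day replicate 1. The labels used here do not give the time of day at which arteries were taken, and its part in these values was not tested.

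Arntl and Dbp had r = -0.57 over the 12 libraries (permutation adjusted p = 0.082; rho = -0.54, adjusted p = 0.11). Within the groups r was -0.28 (exact p = 0.59, n = 6) and -0.64 (exact p = 0.16, n = 6), and it was -0.57 without 2 libraries. Of all genes, those closest to Arntl in log2 value over the 12 libraries were Sash1 (r = 0.91), Cdkn1a (0.88), Dapk1 (0.85), Pogk (0.83), Vcl (0.83) and Ddx17 (0.83). The most opposite were Psmg2 (-0.88), Cep68 (-0.88), Commd8 (-0.87), Tef (-0.85), Mat2b (-0.84) and 2610034B18Rik (-0.83). These were picked for their r and carry no test. Cdkn1a, the cell cycle inhibitor p21, was 9.50 and 10.7 in 14-day replicates 2 and 5 and 23.8 to 47.6 elsewhere.

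**Figure D4:**
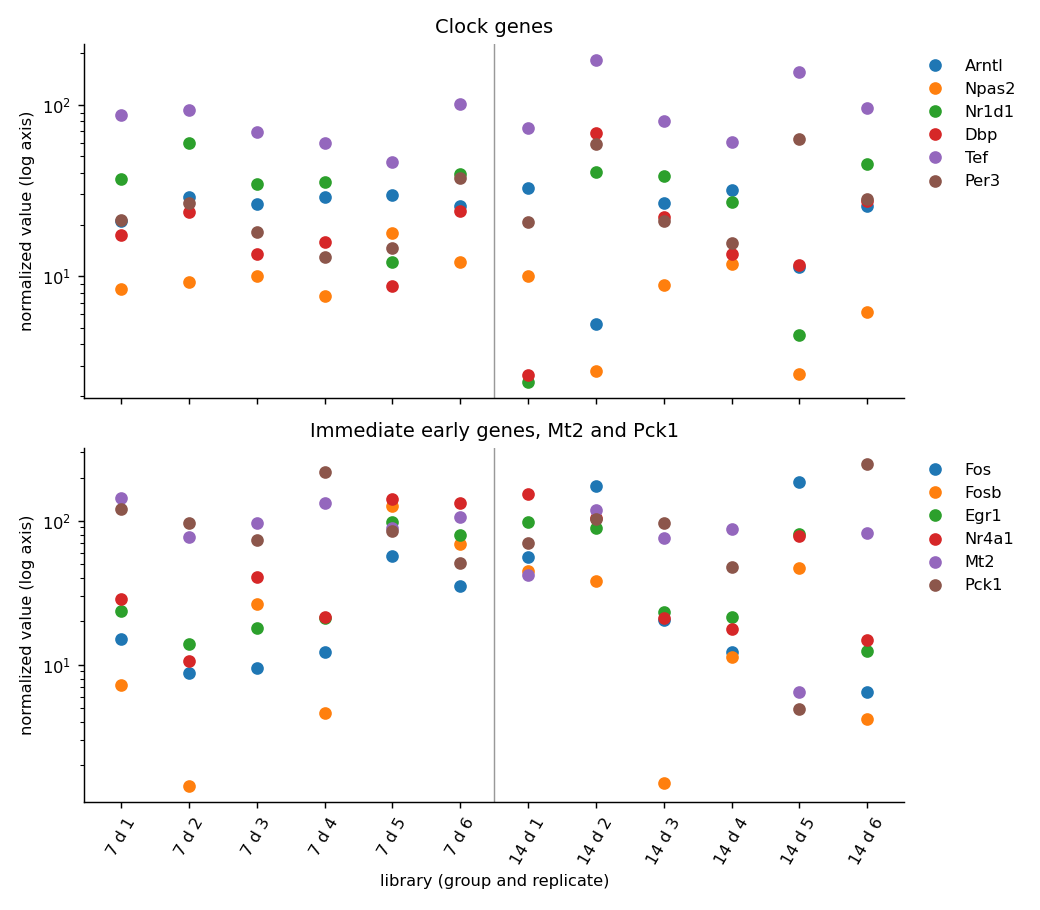
Normalized value (log axis) of 6 clock genes (top) and of 4 immediate early genes with Mt2 and Pck1 (bottom) in the 6 libraries of 7-day sham (left) and the 6 of 14-day sham (right). Arntl is lowest in 14-day replicate 2 at 5.24, Nr1d1 in 14-day replicate 1 at 2.42, and Egr1 is 79.8 or higher in 5 libraries.

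No gene passed the test between 14 and 7 days of sham. Of 14896 genes tested with limma on log2(value + 0.5), 0 were called at an adjusted p under 0.05, or 0.0%. At an unadjusted p under 0.05 limma gave 1128 genes (7.57%), 660 higher at 14 days (4.43%) and 468 lower (3.14%). With edgeR there were 1112, 576 higher and 536 lower, and with DESeq2 1074, 543 higher and 531 lower. With limma after scaling by the total without AY036118 and acinar genes, 484 were higher and 583 lower. The split by direction thus depended on method and scaling. DESeq2 called 1 gene. The values of all 6 libraries of a group lay above all 6 of the other for 76 genes, 47 higher at 14 days (0.316%) and 29 lower (0.195%). The median log2 difference over all genes was -0.01. The 95% interval lay within 2-fold in both directions for 13997 genes (94.0%) and within 1.5-fold for 11020 (74.0%).

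No wall gene passed the test. The log2 difference, 14-day minus 7-day, was -0.16 for Acta2 (95% interval -0.44 to 0.12), -0.12 for Myh11 (-0.42 to 0.18), -0.12 for Pecam1 (-0.32 to 0.09) and 0.20 for Col3a1 (-0.18 to 0.57). Eln had -0.27 (-0.77 to 0.24). Without 7-day replicate 1 the differences were -0.26 for Acta2, -0.23 for Myh11, 0.05 for Col3a1 and -0.41 for Eln. Their adjusted p-values by limma ran from 0.80 to 0.85. The median log2 difference was -0.07 over 25 contractile genes, of which 4 were positive, beside 47.4% of all tested genes. It was -0.06 over 20 endothelial genes, 0.08 over 16 fibroblast genes and 0.03 over 18 collagens, with 0 called in each of these lists. For Agtr1a the difference was -0.38 (-1.25 to 0.50), with 7-day replicate 1 in it, and without that library it was 0.09.

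No fibroblast gene passed the test, and 14 of the 16 on the fibroblast list had a positive difference. Over all tested genes the share with a positive difference was 47.4%. Genes of the same list are not separate evidence. Dcn (decorin, a collagen-binding proteoglycan) was 1785 to 2099 (median 2028) at 7 days and 2179 to 2851 (median 2420) at 14 days. Its groups do not overlap, and its log2 difference was 0.29 (95% interval -0.03 to 0.60, limma adjusted p = 0.68). Lum (lumican, a related proteoglycan) was 164 to 236 and 233 to 343, with a log2 difference of 0.48 (limma adjusted p = 0.63). Efemp1 (fibulin 3, on the elastic fibre list) was 46.9 to 68.7 and 60.5 to 93.9, with 0.33 (limma adjusted p = 0.55).

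The genes Ace, Ednra, Nos3, Cdh5, Cnn1, Postn, Fn1, Mki67, Malat1 and Saa3 overlapped between the groups, with limma adjusted p-values of 0.68 to 0.997. Ace, the angiotensin-converting enzyme, was 99.7 to 166 at 7 days and 102 to 154 at 14 days. Ednra, an endothelin receptor, was 10.4 to 17.97 and 12.8 to 17.04. The endothelial genes Nos3 (nitric oxide synthase) and Cdh5 (VE-cadherin) were 62.0 to 97.8 and 66.0 to 99.7 at 7 days, and 62.1 to 90.5 and 72.0 to 94.2 at 14 days. For both genes the ranges of the groups overlapped. The smooth muscle calponin gene Cnn1 was 184 to 370.2 and 196 to 314. The matrix genes Postn (periostin) and Fn1 (fibronectin) were 259 to 332 and 292 to 715 at 7 days, and 254 to 352 and 343 to 666 at 14 days. Mki67, a proliferation marker, was 5.62 to 15.1 and 12.3 to 15.7, and its lowest library was 7-day replicate 1. The noncoding RNA Malat1 was 5187 to 7516 and 5770 to 7154, and Saa3, an acute phase gene, did not exceed 4.46.

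The smallest p belonged to Cd209g (chr8:4134098-4137707), a lectin gene of the DC-SIGN family. It was 1.16 to 2.28 with a median of 1.76 at 7 days and 2.86 to 5.62 with a median of 3.36 at 14 days. Every 14-day library was above every 7-day library. The log2 difference was 0.88 (SE 0.15, limma adjusted p = 0.084), so it missed the threshold, while DESeq2 on recovered reads gave 1.15 with an adjusted p of 0.015. Levels this low rest on few reads, since 3 reads correspond to 0.159 to 0.977 in these libraries.

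The next genes were farther from the threshold, all with limma adjusted p of 0.52 or more. Gm14420 was 23.5 to 33.0 at 7 days and 36.2 to 46.9 at 14 days, with no overlap and a log2 difference of 0.54. Hiatl1, a membrane transporter-like gene, was 41.4 to 44.4 and 49.1 to 54.4, a log2 difference of 0.26. Slc41a3, of a magnesium transporter family, was 13.5 to 16.6 and 8.65 to 11.9, a log2 difference of -0.52. Trib2, a pseudokinase gene, overlapped, at 11.7 to 19.1 and 18.03 to 27.6.

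No glucocorticoid-responsive gene was called. Of 18 glucocorticoid-responsive genes 16 had a negative difference, and their median was -0.31 against -0.01 over all genes. Among all tested genes 47.4% had a positive difference. Klf9, a glucocorticoid and thyroid hormone target, was 161 to 180 at 7 days (median 168) and 95.1 to 154 at 14 days (median 145), with no overlap and a log2 difference of -0.31. Cdkn1a had -0.85, Mt2 -1.02 and Fkbp5 -0.51. Without 14-day replicate 5 the difference was -0.44 for Mt2 and -0.20 for Klf9. The limma adjusted p-values of these 4 genes ran from 0.55 to 0.66. Both 14-day libraries with low Arntl are also those with the lowest Cdkn1a, and 14-day replicate 5 has the lowest Klf9 and Mt2.

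Vasoactive receptors and enzymes included 5 of 33 at an unadjusted p under 0.05, beside the 7.57% of all genes, with 0 called. The renin-angiotensin list had 1 of 12, Mme. Ptgs2, the inducible cyclooxygenase, was 3.48 to 6.84 (median 4.41) at 7 days and 5.42 to 15.4 (median 9.46) at 14 days. Its groups overlap, and its log2 difference was 0.94 (limma adjusted p = 0.55). Npr3, the natriuretic peptide clearance receptor, had 0.82, Ptger4, a prostaglandin E receptor, 0.38 and Edn1 (endothelin) 0.39. Mme, neprilysin, which cuts vasoactive peptides, had 0.44. Npr3 was 56.4 in 14-day replicate 6, the library richest in adipocyte transcripts, and 12.8 to 27.996 in the other 5. Without that library its log2 difference was 0.56.

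The median differences of other lists lay on both sides of 0. The 23 immediate early genes had a median log2 difference of 0.03 and the 17 core clock genes 0.03, with Npas2 at -0.72 and Hlf, an output factor, at 0.75. Nr1d1 had -0.93, and -0.41 without 14-day replicate 1 or -0.57 without 14-day replicate 5. Arntl had -0.49, and -0.14 without 14-day replicate 2. Of 36 cell cycle genes 25 were positive, beside 47.4% of all tested genes. Their median was 0.12, with Mcm6 (a replication helicase subunit) at 0.30 and Knstrn (a spindle protein) at 0.96. Mesothelial genes had a median of 0.31 over 9, islet genes -0.43 over 11 and erythroid genes -0.33 over 8. Sympathetic and ganglion neuron genes had -0.35 over 16, abundant noncoding RNAs -0.33 over 13 and lymphocyte genes -0.26 over 11, with 0 called in each of these lists.

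Lars2, the mitochondrial leucyl-tRNA synthetase, was among the genes of largest difference. It was 17.6 to 121 (median 69.8) at 7 days and 14.3 to 37.1 (median 18.9) at 14 days, a log2 difference of -1.41 (limma adjusted p = 0.55). AY036118 itself was 1048 to 526773 (median 190883) and 8046 to 96111 (median 31926), a log2 difference of -1.52 (limma adjusted p = 0.81). That difference was -2.78 without 7-day replicate 2 and -0.99 without 7-day replicate 5. The lowest AY036118 of all, in 7-day replicate 2, went with a Lars2 of 17.6, the lowest of its group. The highest Lars2, in 7-day replicate 1, went with the second lowest AY036118 of its group (61149), and the highest AY036118, in 7-day replicate 5, with a Lars2 of 66.8. With the log2 share of AY036118 as a term in the fit, an alternative chosen after seeing the data, the Lars2 difference was -1.12 (limma adjusted p = 0.70). The part of AY036118 reads in the Lars2 values was not tested.

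**Figure D5:**
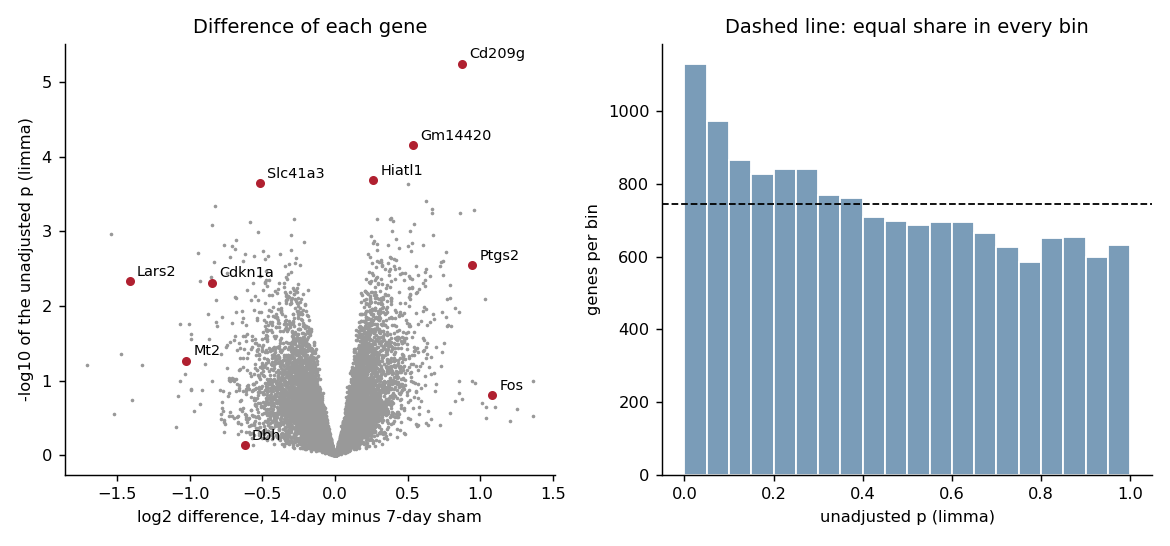
Left, log2 difference (14-day minus 7-day sham) of each of the 14896 tested genes against -log10 of its unadjusted limma p, with 10 genes marked; right, number of genes per bin of unadjusted p, where the dashed line is the height if all bins were equal. Cd209g has the smallest p and no gene passed the adjustment.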

How the data were processed

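Total RNA libraries of mesenteric arteries, made with a stranded kit per the labels' protocols, were compared between 6 libraries of 7-day and 6 of 14-day sham. The authors deposited 1 table of normalized signal per gene and library. The submitters' processing notes list edgeR 3.6.8 with R 3.2.3, HTSeq 0.5.3p3, STAR 2.3.1, bcl2fastq 1.8.4 and FastQC, and build mm10. How genes were annotated, whether counting used strand, and how values were normalized were not given in the sources used here, so values of genes that overlap on opposite strands are uncertain. All 460324 values above 0 were whole multiples (within 0.001 read) of 1 value per library, so reads were recovered and depths computed.

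A gene was tested when at least 5 of all 23 libraries had a value of 1 or more. limma 3.58.1 (R 4.3.3; trend, robust) fitted log2(value + 0.5) with 4 group means, adjusted by Benjamini-Hochberg; a fold change on this scale understates low genes. The design allowed for counts or normalized values, and the test for normalized values was used. edgeR 4.0.16 and DESeq2 1.42.0 on recovered reads were alternatives. The test was checked on simulated data. Single values were compared by exact permutation, for which the smallest p of 6 against 6 is 0.0022, and relations by permutation (100000 resamples, or exact within groups). Python 3 with scipy and matplotlib was used otherwise. Lengths and coordinates come from GENCODE M21, which held 37693 of 39179 identifiers.

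The genes named were 38 chosen whatever their result, the 3 smallest p-values of each list as candidates, the 20 highest per kilobase, the 20 most and 10 least variable genes with a mean of at least 10, and the genes most like Arntl; the genes of smallest p and others outside this were chosen after their values were seen. Members, tests and the 44 gene lists were chosen with earlier results of these data known. Results for some genes are not reported here.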

Additional observations from a re-analysis of the deposited data

Results flagged for a closer look

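In each group of 6, the gap between the extreme library and its nearest neighbour was divided by the range of the group, for genes and sums named above. Of 198 groups of values, 56 exceeded Dixon's 95% critical value for 6 samples, against a nominal 5%. Over all 8950 genes with a mean of at least 10 the share was 12.98% in the 7-day and 7.28% in the 14-day group. Many of the genes below were named for their large spread, so their number restates that choice and is no test, and genes of the same list are not separate evidence.

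In the 7-day group, replicate 1 was far above the others for Dbh (0.958), Th (0.940), Slc6a2 (0.966), Slc18a2 (0.959), Npy (0.932), the sympathetic and ganglion neuron sum (0.941), Rab3c (0.953), Syt1 (0.947), Kcnq3 (0.956), Tubb3 (0.926), Agtr1a (0.951) and Meg3 (0.814). It was far below them for Myh11 (0.822) and the endothelial sum (0.678). In the 14-day group, replicate 1 was far above the others for Dbh (0.973), Th (0.946), Slc6a2 (0.956), Slc18a2 (0.939), Npy (0.935), Rab3c (0.930), Syt1 (0.912), Kcnq3 (0.880), Tubb3 (0.845) and the neuron sum (0.909).

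14-day replicate 4 was far above the others for Myh6 (0.9997), Myl2 (0.9989), Mb (0.9995), Actc1 (0.997), Pln (0.765), Krt8 (0.659), Ttn (0.997), the skeletal muscle sum (0.983), Cxcl5 (0.921) and Ltf (0.869), and 7-day replicate 5 for Cxcl5 (0.917) and Ltf (0.890), with S100a8 (0.808). Myh6 in 7-day replicate 3 gave 1.0 at a value of 0.282, under the 3-read level of 0.423 in that library, with 0 in the other 5, and Mb in the same library gave 1.0 at 0.141. Ucp1 (0.644) and Myh1 (0.802) in 7-day replicate 1 and Ucp1 (1.0) in 14-day replicate 6 stood apart at values of 0.446, 0.268 and 1.13, near 0.

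7-day replicate 4 was far above the others for Reg3a (0.704), Hba-a1 (0.862), the erythroid sum (0.846), Adipoq (0.802) and the adipocyte sum (0.699). 14-day replicate 6 was so for Adipoq (0.725), the adipocyte sum (0.716) and Npr3 (0.651), and 14-day replicate 2 for Reg3b (0.863), Reg3a (0.864) and, at the edge of the rule, Dbp (0.6252). The number of genes detected was low in 14-day replicate 2, at 19185 against 20151 to 20585 (0.690), which also had the fewest reads of its group. Klf9 was low in 14-day replicate 5 (0.768) and Dcn in 7-day replicate 3 (0.651).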

How the results depend on the processing

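The finding that almost no gene was called held under 11 other settings and the omission of each library in turn: 0 genes were called higher or lower except for 1 higher under DESeq2 (Cd209g) and 1 higher without 7-day replicate 2 (4930522L14Rik, adjusted p = 0.043); leaving out libraries gave 0 to 1 higher and 0 to 0 lower. Genes at an unadjusted p under 0.05 numbered 1751 with no filter on low values, where more genes are tested, 725 with the animal number series as a term, and 907 to 1417 when a library was left out; the count was 926 in a fit with the AY036118 share as a term, an alternative chosen after seeing the data. Of 43 gene differences examined, 40 kept their sign under all 23 settings. Many of these genes were named for a small p in the same libraries, which favours a stable sign. The count is therefore no separate support. When a library was left out, the log2 difference of Agtr1a ran from -0.55 to 0.087, of Dbh from -1.63 to 0.76 and of Th from -1.39 to 0.65, the positive values being those without 7-day replicate 1. The log2 difference of AY036118 ran from -2.78 to -0.99 when a library was left out, and was -3.28 with the animal number series as a term. With its own share as a term it was -0.16, which is no check because that term is computed from AY036118 itself.

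The median SD of 14-day sham was 0.189 over genes with a mean of at least 1 and 0.204 with thinned reads; leaving out libraries gave 0.141 to 0.156, and 0.176 to 0.212 for 7-day sham. Genes with a pooled SD over 1 numbered 47 to 89 when a library was left out, 47 being without 7-day replicate 1. The difference in library distance was -0.055 to -0.024 when a library was left out. Over genes with a mean of at least 1 it was -0.047 with an exact permutation p of 0.043. That cut-off adds genes with a mean of 1 to 10, whose median counting SD was 0.234 beside a median pooled SD of 0.345. The 7-day libraries had fewer reads on average, and the part of depth in this p was not tested. With thinned reads the p of the distance was larger, as given above. When a library was left out, the 14-day minus 7-day difference ran from 4430436 to 7030427 reads, 1028 to 1630 genes detected, -14.6 to -7.38 percentage points of AY036118, -7.30 to -3.78 of the 100 most abundant genes, and 3.84 to 5.38 of mitochondrial transcripts; all 5 passed the threshold without 7-day replicate 2, at 7030427, 1630, -14.6, -7.30 and 5.25.

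Within the animal number series shared by both groups, the 14-day arm had a single library, so no test was made; Cd209g had a log2 difference of 1.51 in series 27 and 0.44 in series 28, and Ptgs2 1.81 and -0.09. No paired analysis was possible because the labels give no replicate numbers shared between the groups. Depth limits genes below a value of about 1, where 3 reads correspond to as much as 0.977 in the shallowest library. The 3-read floors cover counting error only, while the intervals of log2 differences come from the spread between libraries.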
